A study of Mus musculus with 12 samples.

Results

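The clustered replication-dependent histone genes were examined across the 4 stages of terminal erythroid differentiation. They were taken as the genes whose names begin with Hist1h, Hist2h, Hist3h or Hist4h, without those named as pseudogenes, and with a value above 0 in at least 3 of the 12 libraries. The name matched 70 genes, of which 1 was named a pseudogene and 5 were above 0 in fewer than 3 libraries. The remaining 64 of 29838 genes comprised 6 H1, 17 H2a, 17 H2b, 11 H3 and 13 H4 genes.

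Core histones H2a, H2b, H3 and H4 form the protein spool of the nucleosome, and H1 binds the linker DNA between nucleosomes. A cell that copies its DNA has to supply histones at the same time, and it does so from clustered genes that are switched on in S phase. Their mRNAs are unusual in ending in a short stem-loop in place of a poly(A) tail. The stem-loop is bound by the protein Slbp, which serves in the cleavage, translation and timed decay of the mRNA. Some of these genes can also give polyadenylated transcripts, which have been described in cells that leave the cell cycle. Erythroblasts divide while they mature, and their nucleus condenses before it is expelled.

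RNA was sequenced from wild-type mouse bone marrow erythroblasts, with 3 libraries each of proerythroblasts (Pro), basophilic (Baso), polychromatic (Poly) and orthochromatic (Ortho) erythroblasts. The cells came from male C57/BL6 mice aged 8 weeks and were depleted of CD45+ cells, gated as negative for CD45, CD11b and GR1, and sorted by CD44, Ter119 and cell size. For Ortho replicates 2 and 3 the cell type field says no more than erythroblast, and their stage was taken from their titles. The labels do not say that the 3 libraries of a stage came from separate mice, so p-values measure the spread between libraries, which may be technical. All values are FPKM, a count of fragments scaled to transcript length and to library size, and their sum ranged from 505624 to 691033 over the libraries. The depth behind each value is unknown. Ratios between libraries in 1819 low genes could not settle it, because pooling libraries of unlike depth blurs steps of whole fragments. In bulk RNA, fewer cells of a kind and less RNA per cell cannot be told apart.

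Erythroid markers were present in all libraries, and none of the 10 was at 0. The 10 hemoglobin genes summed to between 36554 and 56055 FPKM in Pro and between 309636 and 363580 FPKM in Ortho, and the FPKM of every other gene is relative to a total that includes them. Markers of other cell types moved with the stages. The 10 neutrophil markers, none of them at 0, summed to 7350 to 9160 FPKM in Pro, 12623 to 14743 in Baso, 16199 to 19185 in Poly and 14440 to 17855 in Ortho, with S100a9 as the most abundant, although the CD45, CD11b and GR1 gate was set to leave such cells out. The 9 B lineage markers summed to 66.6 to 114 FPKM in Pro and 169 to 218 in Ortho, and none was at 0. The 9 macrophage markers summed to 29.4 to 35.2 FPKM in Pro and 62.3 to 74.1 in Ortho, and the 8 T and NK markers to 28.6 to 40 and 55.8 to 66.4, with 4 markers of each list under 1 FPKM in all libraries. The sum of the 8 megakaryocyte markers went the other way, from 75.5 to 135 FPKM in Pro to 40.8 to 49.5 in Ortho. Itga2b, the most abundant of them, rose from a mean of 18.9 FPKM in Pro to 25.0 in Ortho, while the means of the others fell. The part of all these markers' cell types in the histone values below was not tested.

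The genes lie in 4 clusters of the mm10 genome. The Hist1 cluster on chromosome 13 holds 54 of them (chr13:21715763-23934156), while the processed pseudogene Hist1h2al lies apart on the same chromosome (chr13:51202727-51203065), the Hist2 cluster on chromosome 3 holds 6 (chr3:96219865-96263311), the Hist3 cluster on chromosome 11 holds 2 (chr11:58948920-58956830), and Hist4h4 stands alone on chromosome 6 (chr6:136801553-136804415). In GENCODE M21, 59 of the 64 transcript models have a single exon, as is usual for this family. The 13 H4 models encode 1 protein and the 11 H3 models 3 proteins, whereas the 17 H2b models encode 10 and the 6 H1 models 6. Of the 17 H2a models, Hist1h2aj and Hist1h2al have no coding part, and the others encode 7 proteins. Hist1h2aj is annotated as an unprocessed pseudogene. The copies are much alike. Of the 64 models, 51 share at least 1 stretch of 150 bases, the read length, with a transcript of another gene. That gene need not be a copy: it was the overlapping Trim17 for Hist3h2a and the overlapping Gm15444 for Hist2h2ab. The median share of such stretches per model was 58.4% for H2a, 26.8% for H3, 22.3% for H2b, 12.5% for H4 and 0% for H1. How fragments that match several genes were counted is not given in the sources used here. The split between close copies and the sums over them, of H2a above all, are therefore uncertain.

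The stem-loop that defines the mRNA end was found in 41 of the 64 transcript models. It was searched on the sense strand as 16 bases that start with GG, form a perfect stem of 6 base pairs and hold a loop of 4 bases that begins with TTT. Of 58730 other protein-coding transcripts, 51 hold such a stretch (0.09%). Many of the 23 models without it are annotated no further than the stop codon. The following ends, read from GENCODE M21, belong to the genes whose values changed most and to examples of the variants, with the 16 bases in capitals and up to 5 bases on each side.
Hist1h2ap: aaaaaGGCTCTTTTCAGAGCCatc
Hist1h2ag: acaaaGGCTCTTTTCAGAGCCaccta
Hist3h2a: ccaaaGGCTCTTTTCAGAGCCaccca
Hist3h2ba: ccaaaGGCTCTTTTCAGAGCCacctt
Hist1h2bg: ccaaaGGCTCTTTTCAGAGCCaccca
Hist1h1c: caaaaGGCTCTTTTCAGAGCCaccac
Hist1h3e: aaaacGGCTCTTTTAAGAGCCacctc
Hist1h4i: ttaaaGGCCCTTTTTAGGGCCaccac
Hist1h4b: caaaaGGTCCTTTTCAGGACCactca
Hist4h4: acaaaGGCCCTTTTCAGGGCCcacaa
H1, H2a, H2b and H3 genes shared 1 stem, and differed in the fourth base of the loop. All 11 H4 ends found had other stems, 9 as in Hist1h4i and Hist4h4 and 2 as in Hist1h4b. Hist1h2ap and Hist3h2a, which took different courses (below), carry the same 16 bases.

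The models differed more in how far they run past the stem-loop. The model of Hist1h2ap (chr13:21833026-21833507, minus strand) stops 3 bases after it, and that of Hist1h2ag (chr13:22042460-22042944, minus strand) 23 bases after it. Those of Hist3h2ba (chr11:58948920-58949533), Hist1h1c (chr13:23738808-23740367), Hist3h2a (chr11:58954685-58956830) and Hist4h4 run on for 169, 840, 1643 and 2445 bases. A polyadenylation signal (AATAAA or ATTAAA in the last 50 bases) was present in 16 of the 64 models and in 50.2% of other protein-coding transcripts. These 4 models all hold one.

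**Figure D1:**
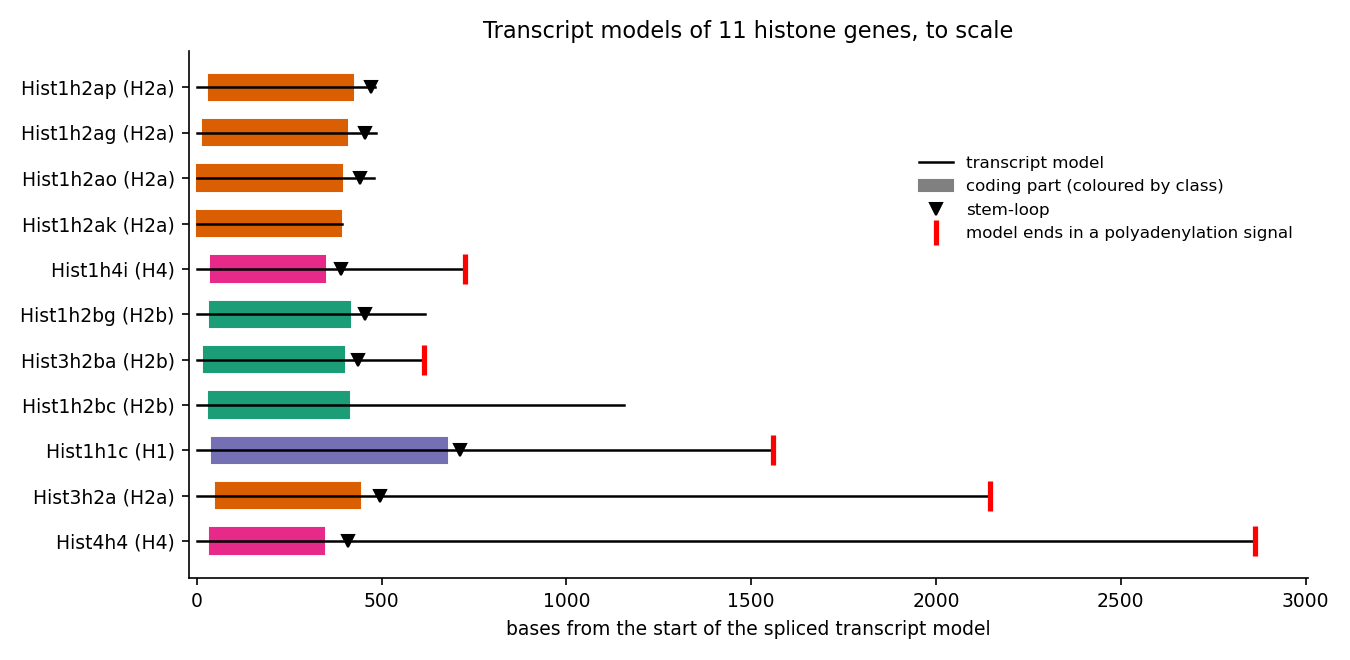
Transcript models of 11 histone genes drawn to scale, with position in bases along the spliced transcript on the x axis, the coding part as a box, the stem-loop as a triangle and a polyadenylation signal at the end as a red bar. Of the H2a models drawn, Hist1h2ap, Hist1h2ag and Hist1h2ao end 3, 23 and 31 bases after the stem-loop and Hist1h2ak holds none. The models of Hist1h1c, Hist3h2a and Hist4h4 run on for 840, 1643 and 2445 bases.

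Promoters of the clusters hold class-specific boxes, so a promoter window was read from RefSeq (GRCm38.p6) for the 57 members found there. The window held 250 bases before the start and 50 bases after it, and boxes were counted anywhere in it. The octamer box (ATTTGCAT on either strand), a site of Oct1-type factors in H2b promoters, was found in 6 of 15 H2a and 5 of 15 H2b promoters and in none of 6 H1, 9 H3 and 12 H4 promoters, against 1.75% of 27025 genes. H2a and H2b genes are often arranged head to head, so that both read the same stretch. A CCAAT box was present in every H1, H2a, H2b and H3 promoter but in 3 of 12 H4 promoters (37.92% of all genes), and TATAAA in 33 of 57 (14.16%). Shown here are the 250 bases before Hist3h2a (chr11:58954435-58954684) and its neighbor Hist3h2ba (chr11:58948661-58948910), Hist1h2bg (chr13:23571150-23571399) and Hist1h2ap (chr13:21833476-21833725, minus strand), since these genes took different courses, with the octamer in capitals.
Hist3h2a: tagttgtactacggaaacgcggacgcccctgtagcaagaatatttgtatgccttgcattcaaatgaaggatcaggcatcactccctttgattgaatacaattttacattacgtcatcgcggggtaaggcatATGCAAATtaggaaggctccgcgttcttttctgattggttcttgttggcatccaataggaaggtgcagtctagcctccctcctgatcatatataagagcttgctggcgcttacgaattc
Hist3h2ba: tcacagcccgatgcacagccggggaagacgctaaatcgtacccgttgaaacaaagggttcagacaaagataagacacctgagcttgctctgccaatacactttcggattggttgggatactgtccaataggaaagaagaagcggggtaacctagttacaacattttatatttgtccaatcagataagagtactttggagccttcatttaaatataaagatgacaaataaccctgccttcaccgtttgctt
Hist1h2bg: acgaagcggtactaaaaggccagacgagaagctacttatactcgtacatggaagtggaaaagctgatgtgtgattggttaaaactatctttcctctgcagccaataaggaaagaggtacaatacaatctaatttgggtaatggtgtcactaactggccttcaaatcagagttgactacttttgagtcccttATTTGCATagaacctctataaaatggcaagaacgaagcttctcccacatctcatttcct
Hist1h2ap: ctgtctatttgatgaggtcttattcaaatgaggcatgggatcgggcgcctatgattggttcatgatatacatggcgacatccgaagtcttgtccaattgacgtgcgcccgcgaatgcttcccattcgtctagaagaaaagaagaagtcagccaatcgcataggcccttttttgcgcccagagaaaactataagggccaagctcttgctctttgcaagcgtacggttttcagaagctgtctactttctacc
The octamer was present in 2 of the 5 genes called higher below that have a promoter in the table (Hist3h2a and Hist1h2bg) and in 2 of the 10 H2a genes called lower in Ortho (Hist1h2ab and Hist1h2ah). Hist3h2ba and Hist1h2ap hold none in this window.

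By summed FPKM, histone transcripts measured here were mostly H2a. The part of fragments that match several genes in this share was not tested. Over all 64 genes the FPKM summed to 1381 ± 336 in Pro (SD, n = 3), then 2133 ± 205 in Baso, 1562 ± 440 in Poly and 654 ± 109 in Ortho, and H2a genes held 86.2% ± 3.83, 87.0% ± 2.57, 77.0% ± 10.4 and 71.9% ± 6.28 of it. The other classes were far lower: in Baso, H2b summed to 125 ± 11 FPKM, H4 to 70.1 ± 3.34, H1 to 54.9 ± 12.6 and H3 to 23.9 ± 1.96. Nucleosomes need equal parts of the core histones, and the values here were unequal. Whether RNA was selected by its poly(A) tail is not given in the sources used here, and such a step would leave out the mRNAs that end in the stem-loop.

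The classes did not follow 1 course. The H2a sum was 844, 1489 and 1258 FPKM in Pro, 1617, 1881 and 2080 in Baso, 695, 1393 and 1612 in Poly, and 344, 523 and 558 in Ortho. Library 1 of each stage had the lowest H2a sum of its stage, and Ortho lay below all other libraries. The H2b sum was 43.5, 65.4 and 48.4 FPKM in Pro, 134, 128 and 113 in Baso, 163, 152 and 145 in Poly, and 76.7, 61.3 and 82.3 in Ortho. Here Baso and Poly lay above all Pro and Ortho libraries. The H1 sum was 37.1 ± 9.14 FPKM in Pro, 82.0 ± 20.4 in Poly and 61.7 ± 7.15 in Ortho, and Hist1h1c made up 78.0 to 94.6% of it over the 12 libraries. H4 held 75.2 ± 14.8, 70.1 ± 3.34 and 69.3 ± 7.34 FPKM in Pro, Baso and Poly and 31.3 ± 1.46 in Ortho, with the 3 Ortho libraries below all others. H3 went from 19.4 ± 0.423 FPKM in Pro to 13.0 ± 1.15 in Ortho.

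**Figure D2:**
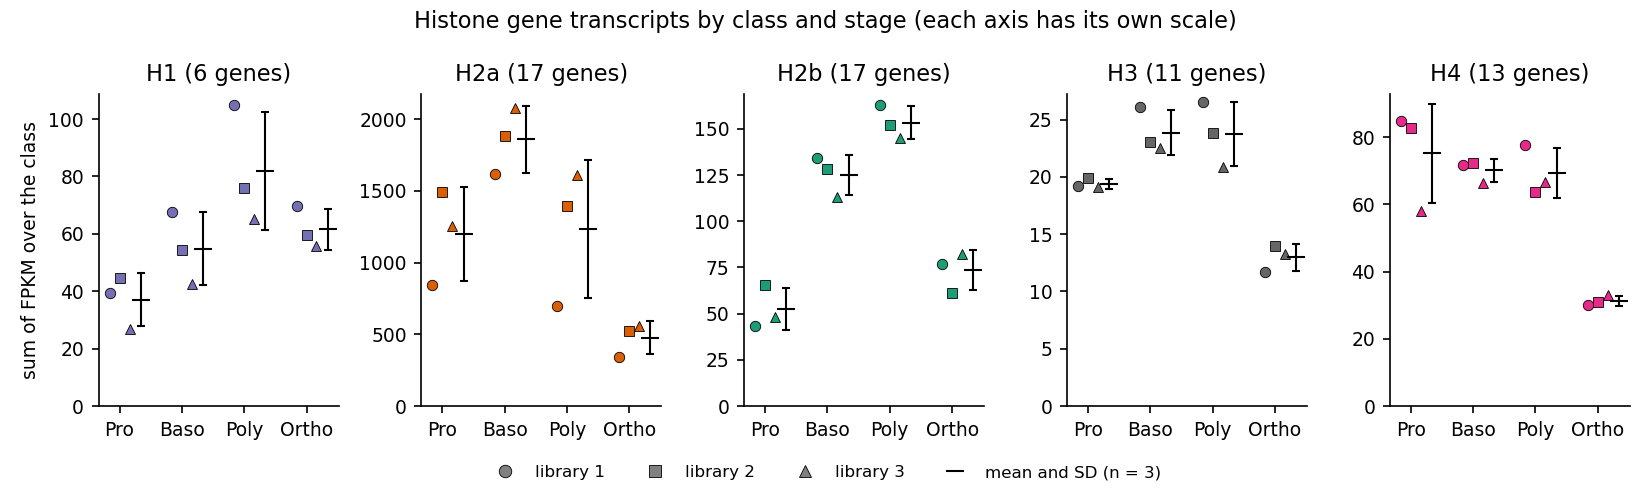
Sum of FPKM over the genes of each histone class (y axis, each panel with its own linear scale from 0) in the 4 stages, with 1 point per library and the mean and SD beside them. H2a was highest in Baso (1859 on average) and H2b and H1 in Poly (153 and 82.0), and the H2a, H3 and H4 sums were lowest in Ortho.

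Gene by gene, the mean was highest in Baso for 33 of the 64 genes, in Poly for 27, in Pro for 4 and in Ortho for none, and it was lowest in Ortho for 47. These counts were not made over all genes, so they are not shown to be particular to histone genes. The median log2 change of all genes tested (below) was -0.42 in Ortho against Pro and -0.08 in Ortho against Poly. Of the 17 H2a genes, 15 were highest in Baso, and of the 17 H2b genes, 11 were highest in Poly. Most genes were low: 18 reached a stage mean of at least 10 FPKM, and 42 stayed under 5.

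The limma test was run on log2(FPKM + 1) for the 12994 genes that reached 1 FPKM in 3 or more libraries. A gene was called when its Benjamini-Hochberg adjusted p was under 0.05 and its log2 change was 1 or more in size. The scale understates changes of low genes. Of the 64 histone genes, 57 passed (4 H1, 15 H2a, 16 H2b, 10 H3 and 12 H4), of which 31 were at 1 FPKM or more in all 12 libraries and 26 were not. The 7 that did not pass were Hist1h1d, Hist1h1t, Hist1h2al, Hist2h2ab, Hist1h2ba, Hist1h3f and Hist2h4, which stayed at or under 1.14 FPKM in every library. The comparisons of Baso, Poly and Ortho with Pro share the 3 Pro libraries.

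In Baso against Pro, 5 of the 57 were called higher (8.77%, against 1.82% of all genes tested) and 0 lower (against 8.54% of all genes). At an unadjusted p under 0.05, 16 were higher and 2 lower by the same test. Of all 12994 genes tested, 7999 were under it in either direction. The median log2 change was 0.34 over the 57 and -0.23 over all genes, and 51 of the 57 were positive. By class, the medians were 0.62 for H2a, 0.41 for H2b, 0.23 for H3, 0.16 for H4 and 0.13 for H1. In Poly against Pro, 6 were called higher (10.5%, against 3.59%) and 0 lower (against 12.8%), with 14 higher and 3 lower at an unadjusted p under 0.05. Of all 12994 genes, 8969 were under it in either direction. All 5 of the first comparison were among the 6.

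**Figure D3:**
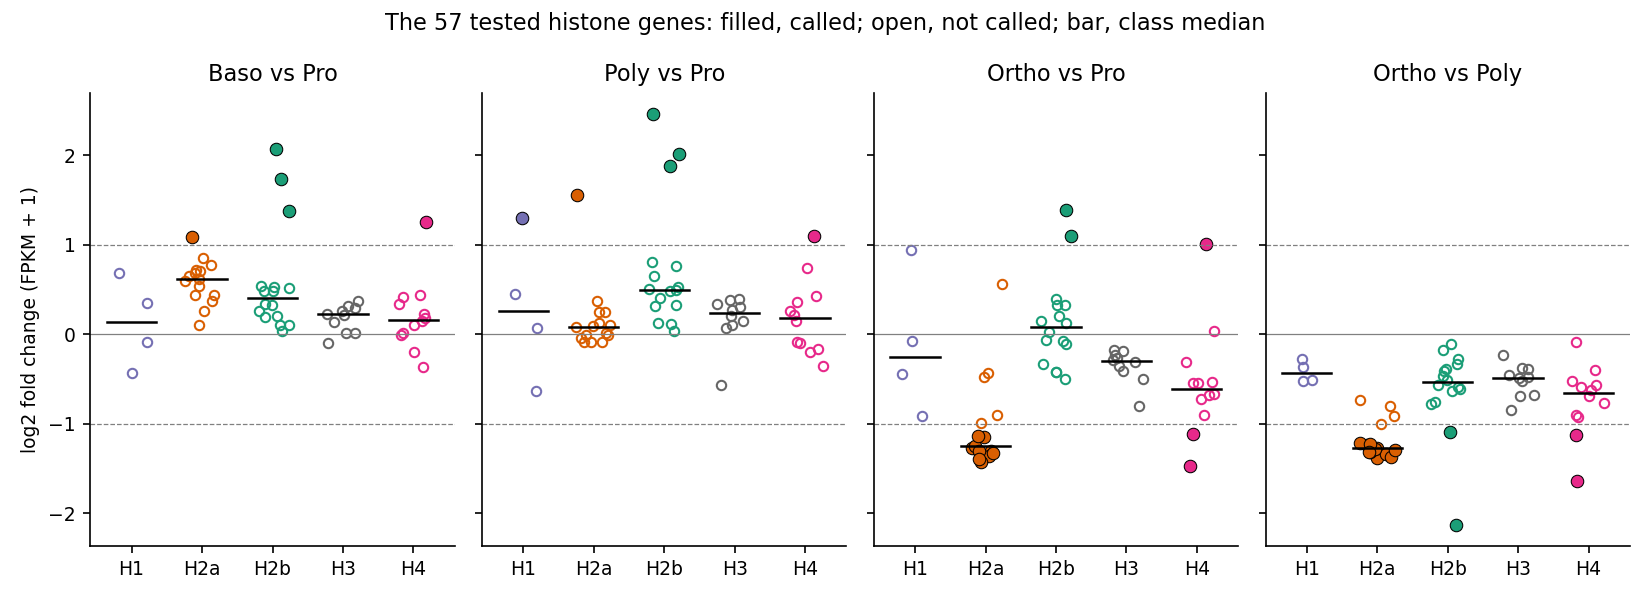
Log2 fold change of each of the 57 tested histone genes (y axis, on log2(FPKM + 1)) by class in 4 comparisons, with called genes filled, other genes open, class medians as bars and dashed lines at the threshold of 1. The H2a median was 0.62 in Baso against Pro and -1.27 in Ortho against Poly, and all 57 genes were below 0 in the latter.

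The 6 genes called higher were 3 H2b genes, 1 H2a, 1 H1 and 1 H4 gene. Hist3h2ba (H2bu2 in RefSeq), an H2b gene of the Hist3 cluster, was at 7.29, 11.4 and 7.8 FPKM in Pro, 38.2, 46.7 and 35 in Baso, 52, 54 and 50.8 in Poly, and 9.66, 9 and 15.8 in Ortho. Its Baso and Poly libraries lay above all of Pro and Ortho, which overlapped each other. The log2 change was 2.07 ± 0.20 (SE; limma adjusted p = 8.58e-06) in Baso and 2.46 ± 0.20 (adjusted p = 1.49e-06) in Poly against Pro. From Poly to Ortho it fell by 2.13 ± 0.20 (adjusted p = 7.59e-06), and its Ortho level was not called different from Pro (0.33 ± 0.20, adjusted p = 0.156, and -0.01 with all libraries rescaled to the same sum). No stretch of 150 bases of this gene occurs in another transcript.

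Hist3h2a (H2aw), its H2a neighbor, took a similar but smaller course. It was at 6.21, 7.2 and 5.78 FPKM in Pro, 15.6, 14.7 and 13.7 in Baso, 23, 21.4 and 18.1 in Poly, and 10.5, 10.3 and 8.99 in Ortho. The 4 stages did not overlap. The log2 change against Pro was 1.09 ± 0.11 in Baso (limma adjusted p = 1.07e-05) and 1.56 ± 0.11 in Poly (adjusted p = 6.22e-07). The Baso value came under the threshold with all libraries rescaled to the same sum (0.93) and with a pseudocount of 5 (0.79). The change was 0.56 ± 0.11 in Ortho against Pro, and in Ortho against Poly it was just short of a call. The latter passed with libraries rescaled to the same sum (-1.17) and without Poly replicate 3 (-1.09), Ortho replicate 1 (-1.03) or Ortho replicate 2 (-1.02). The gene shares 28% of its 150-base stretches with Trim17, which overlaps it on the same strand and was itself listed at 0.273 FPKM at most.

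Hist1h2bc, an H2b gene of the Hist1 cluster (chr13:23684199-23692908), stayed above its Pro level. It was at 6.84, 12.4 and 9.02 FPKM in Pro, 34.5, 33.9 and 30.1 in Baso, 46.9, 37.6 and 36.3 in Poly, and 29.1, 20.1 and 28.6 in Ortho. All libraries of the 3 later stages lay above all Pro libraries, and those of Ortho lay below all of Baso and Poly. Against Poly the Ortho change was -0.63 ± 0.19 (limma adjusted p = 0.0305), under the threshold. The log2 changes against Pro were 1.73 ± 0.19, 2.01 ± 0.19 and 1.39 ± 0.19 in Baso, Poly and Ortho (limma adjusted p = 2.08e-05, 4.29e-06 and 4.27e-05). Its model has 2 exons, a polyadenylation signal was not found in its last 50 bases, and the stem-loop is not in it.

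Hist1h2bg (H2bc8), another H2b gene of the Hist1 cluster, was lower. It was at 2.84, 7.06 and 5.08 FPKM in Pro, 15.4, 14.3 and 12.1 in Baso, 20.4, 20.2 and 19.5 in Poly, and 12.3, 10.3 and 11.4 in Ortho, with no overlap between Pro and the later stages. Against Poly the Ortho change was -0.78 ± 0.21 (limma adjusted p = 0.0152), under the threshold and without overlap. The log2 changes against Pro were 1.38 ± 0.21, 1.88 ± 0.21 and 1.10 ± 0.21 (limma adjusted p = 0.000184, 1.28e-05 and 0.000485). The call in Ortho was lost without Pro replicate 1 (0.81) and with the libraries rescaled to the same sum (0.78), and with a pseudocount of 5 those in Ortho (0.73) and Baso (0.94) were. It shares 39% of its 150-base stretches with other genes, Hist1h2bc among them, so these rows are not fully separate.

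Hist4h4 (H4f16), the single gene of its cluster, was at 0.406, 0.373 and 0.356 FPKM in Pro, 2.3, 2.83 and 1.83 in Baso, 1.87, 2.1 and 1.91 in Poly, and 1.86, 1.8 and 1.7 in Ortho. Pro lay below all other libraries, at a level where the pseudocount weighs. The log2 changes against Pro were 1.26 ± 0.12, 1.10 ± 0.12 and 1.01 ± 0.12 (limma adjusted p = 7.92e-06, 1.09e-05 and 1.19e-05), and with a pseudocount of 5 they were 0.44, 0.37 and 0.34. The Ortho call was also lost without Ortho replicate 1 (0.99) and with libraries rescaled to the same sum (0.85). Unlike Hist3h2ba it stayed near its Poly level in Ortho (-0.09 ± 0.12, adjusted p = 0.685), a value of no fixed sign, since it was 0.06 with median centring.

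Hist1h1c (H1f2), a linker histone that many cell types make, was at 30.8, 37.8 and 21.5 FPKM in Pro, 60, 48.4 and 36.9 in Baso, 98.4, 69 and 58.4 in Poly, and 64.9, 56.3 and 50.8 in Ortho. Poly and Ortho lay above Pro, and Baso overlapped it. It was higher in Poly (1.30 ± 0.24, limma adjusted p = 0.00052). The change was 0.68 ± 0.24 in Baso (adjusted p = 0.0288) and 0.94 ± 0.24 in Ortho (adjusted p = 0.00351), both under the threshold of 1. The Ortho value passed it with the hemoglobin genes left out (1.42), with median centring (1.33), without Pro replicate 2 (1.12) and without Ortho replicate 3 (1.02).

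**Figure D4:**
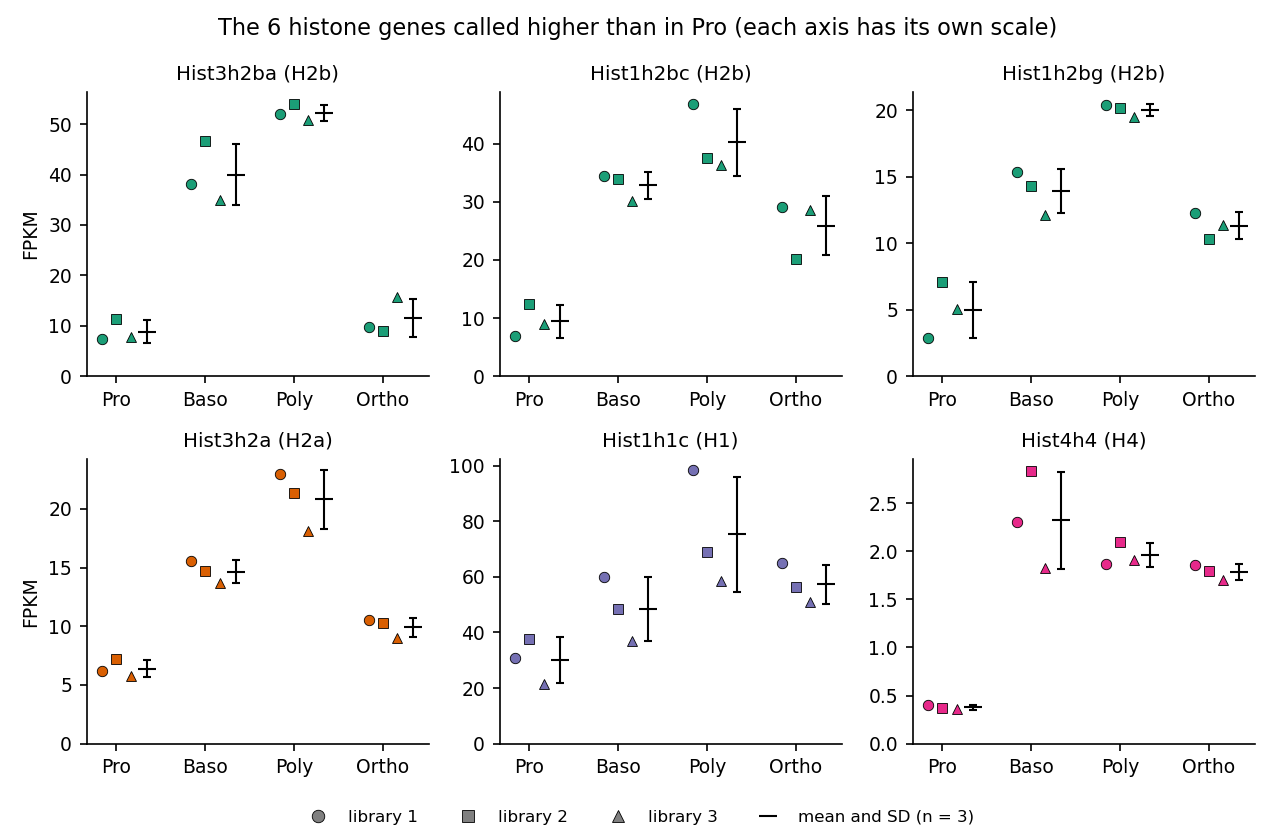
FPKM of the 6 histone genes called higher than in Pro (y axis, each panel with its own linear scale from 0) in the 4 stages, with 1 point per library and the mean and SD beside them. Hist3h2ba is back near its Pro level in Ortho (9 to 15.8 against 7.29 to 11.4), whereas Hist4h4 stays at 1.7 to 1.86 against 0.356 to 0.406.

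The models were also compared between these groups. Of the 6 genes called higher, 5 hold the stem-loop in models that run on for 155 to 2445 bases past it, and 4 of these 5 end in a polyadenylation signal, whereas Hist1h2bc holds neither. Of the 11 H2a genes called lower in Ortho (below), 5 hold the stem-loop and end 3 to 42 bases after it, and 0 hold the signal. Long models were not particular to the genes called higher: among the other 47 genes, 31 hold the stem-loop, 16 of these run on for 155 bases or more, and 12 of the 47 hold the signal. As the groups were formed from the calls, these counts are a description without a test.

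In Ortho against Pro, 3 of the 57 were called higher (5.26%, against 6.33% of all genes) and 12 lower (21.1%, against 23.8%). The median log2 change, -0.42, equaled that of all genes. Both shares were near the background, and the classes within it were unequal: 10 of 15 H2a genes were called lower, 2 of 12 H4 genes, and 0 of the 4 H1, 16 H2b and 10 H3 genes (1, 2 and 3 of them lower at an unadjusted p under 0.05 by limma). Of all 12994 genes, 10062 were under 0.05 in either direction. In Ortho against Poly, 15 of the 57 were called lower (26.3%, against 4.81%) and 0 higher (against 1.05%), with 42 lower and 0 higher at an unadjusted p under 0.05. Of all 12994 genes, 4508 were under it in either direction. All 57 changes were negative, with a median of -0.63 against -0.08 over all genes. The 15 were 11 H2a genes, 2 H2b genes (Hist3h2ba and Hist1h2bn) and 2 H4 genes (Hist1h4i and Hist1h4f). All but 1 of these 11 H2a genes share stretches of read length with other genes, up to 91.5% of a model's stretches. The H2a calls here and against Pro may therefore not be separate. The part of shared fragments in these counts and percentages was not tested. In Poly against Baso, 0 were called higher and 0 lower (against 0.0616% and 0.454%), with 3 higher and 7 lower at an unadjusted p under 0.05. Of all 12994 genes, 3808 were under it in either direction.

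Hist1h2ap (H2ac24), the most abundant of the 64, was at 351, 578 and 487 FPKM in Pro, 627, 734 and 825 in Baso, 252, 526 and 626 in Poly, and 127, 198 and 214 in Ortho. All Baso libraries lay above Pro, Poly overlapped Pro and lay below Baso, and Ortho lay below every other library. The log2 change was 0.65 ± 0.31 in Baso against Pro (limma adjusted p = 0.101) and -0.08 ± 0.31 in Poly against Pro (adjusted p = 0.827). The latter was 0.31 without Poly replicate 1, 0.08 without Pro replicate 2, and 0.26 and 0.16 with hemoglobin left out and with median centring. In Ortho the gene fell by 1.39 ± 0.31 against Pro (adjusted p = 0.00172) and by 1.31 ± 0.31 against Poly (adjusted p = 0.00824). With the hemoglobin genes left out the change against Pro was -0.90, and neither then nor with median centring was it a call.

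The other abundant H2a genes moved with it. Hist1h2ag (H2ac11) was at 130, 200 and 172 FPKM in Pro, 224, 256 and 273 in Baso, 91.2, 190 and 211 in Poly, and 43.5, 67.4 and 75 in Ortho. Hist1h2ao (H2ac23) was at 187, 373 and 309 FPKM in Pro, 391, 470 and 519 in Baso, 155, 338 and 402 in Poly, and 80.3, 129 and 138 in Ortho. As for Hist1h2ap, library 1 was the lowest of each stage and Ortho did not overlap with any other stage. Over the 12 libraries Hist1h2ag stayed at 33.2 to 36.9% of Hist1h2ap and Hist1h2ao at 53.3 to 65.2%. These genes share 65.5% (Hist1h2ag) and 91% (Hist1h2ap) of their 150-base stretches with other genes, and the part of shared fragments in these ratios was not tested. In Ortho against Pro, Hist1h2ag fell by 1.43 ± 0.30 (limma adjusted p = 0.000927) and Hist1h2ao by 1.30 ± 0.35 (adjusted p = 0.00524), calls lost with hemoglobin left out (-0.94 and -0.81) and, for Hist1h2ao, with median centring (-0.90). Against Poly, Hist1h2ag fell by 1.34 ± 0.30 (adjusted p = 0.00489) and Hist1h2ao by 1.29 ± 0.35 (adjusted p = 0.0165), the latter call being lost without Poly replicate 2 (-1.14), Poly replicate 3 (-1.02) or Ortho replicate 1 (-1.05), or without the filter on FPKM.

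Hist1h2ak (H2ac15, chr13:21753435-21753827, minus strand) is the 1 gene of the 11 that shares no 150-base stretch with another transcript. It was at 8.36, 6.53 and 6.44 FPKM in Pro, 10, 9.4 and 8.94 in Baso, 5.58, 7.91 and 7.26 in Poly, and 1.86, 2.37 and 3.02 in Ortho. Ortho again lay below every other library. It fell by 1.25 ± 0.15 in Ortho against Pro (limma adjusted p = 1.41e-05) and by 1.21 ± 0.15 against Poly (adjusted p = 7.56e-05). Both calls were lost with a pseudocount of 5 (-0.71 and -0.68), and the call against Pro also with hemoglobin left out or median centring (-0.86 in each). Library 1 was not its lowest in Pro and Baso, and it stood at 1.08 to 2.38% of Hist1h2ap. A predicted gene on the opposite strand, Gm44454, overlaps it and was listed at 3.1 FPKM at most, and Gm44466, which overlaps Hist1h2ap in the same way, at 15.6 at most. Whether reads were counted by strand is not given in the sources used here.

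**Figure D5:**
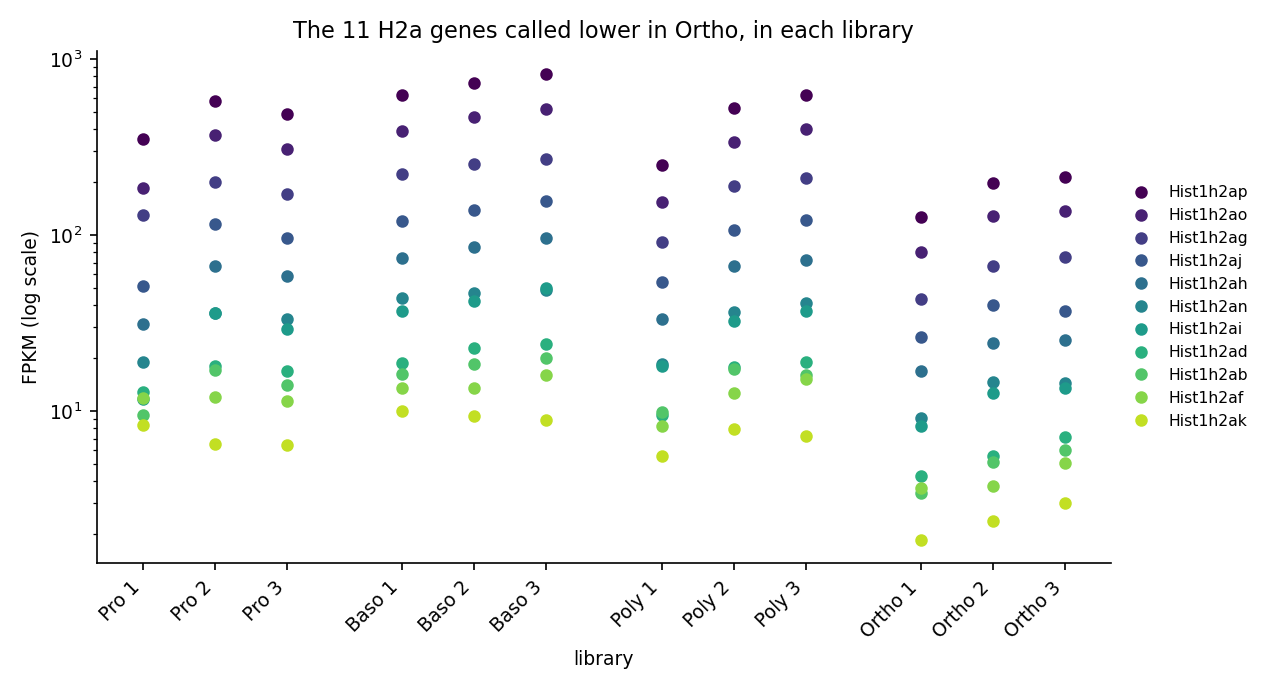
FPKM (log scale) of the 11 H2a genes called lower in Ortho in each of the 12 libraries, with 1 color per gene. For 10 of the 11 the Ortho libraries are the 3 lowest (Hist1h2ai, at 8.24 to 13.6 FPKM in Ortho, overlaps Pro 1 at 11.7), with Hist1h2ap at 127 to 214 FPKM there and 252 to 825 in the others, and Poly 1 lies below Poly 2 and Poly 3 in every gene.

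The 11 H2a genes had log2 changes of -1.38 to -1.21 in Ortho against Poly. Beside Hist1h2ap, Hist1h2ag, Hist1h2ao and Hist1h2ak above, they were Hist1h2ab, Hist1h2ad, Hist1h2af, Hist1h2ah, Hist1h2ai, Hist1h2aj and Hist1h2an. All but Hist1h2ai were also called against Pro. Against Poly, 11 H2a genes were called with hemoglobin left out, 10 with median centring and 13 with libraries rescaled to the same sum. Against Pro, the H2a calls were 0, 1 and 12 under these scalings, although the 10 genes kept their sign in every alternative (-1.80 to -0.66). Over all genes, 469, 437 and 892 were called lower against Poly under the scalings, and 1152, 1293 and 4863 against Pro. The scalings shift the median of all genes, which in Ortho against Pro was -0.42 as deposited and -0.01, -0.03 and -0.73 under them. Relative to that median, the H2a median lay at -0.83 as deposited and at -0.77, -0.83 and -0.82 under the scalings. Each scaling moves all genes of a library nearly alike, so these differences could hardly change, and their likeness is no test.

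The remaining H2a genes differed. Hist3h2a rose to Poly, as above, and Hist1h2ac, Hist1h2ae and Hist2h2ac were not called in any comparison, although their Ortho libraries lay below all of Pro and of Poly. Their means were 4.57 ± 1.29, 11.2 ± 3.18 and 1.33 ± 0.0943 FPKM in Pro and 2.93 ± 0.317, 5.4 ± 0.511 and 0.751 ± 0.29 in Ortho. Hist1h2ac lies head to head with Hist1h2bc. The pair did not move alike, with the former at 2.62 to 3.25 FPKM in Ortho and 3.36 to 5.93 in Pro, the latter at 20.1 to 29.1 and 6.84 to 12.4.

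Of the other H2b genes, 1 was called, in Ortho against Poly. Hist2h2be, the fourth most abundant, was at 9.71, 13 and 7.63 FPKM in Pro, 8.84, 10.6 and 11.4 in Baso, 10.5, 11.3 and 10.7 in Poly, and 6.76, 6.55 and 6.91 in Ortho. Ortho lay below the other stages, with the lowest log2 change of the tested H2b genes against Pro (-0.50 ± 0.15, limma adjusted p = 0.0104), under the threshold. Hist1h2bn was at 5.77, 4.08 and 2.89 FPKM in Poly and 1.66, 0.972 and 1.64 in Ortho and fell by 1.09 ± 0.29 (adjusted p = 0.0136). That call was lost without Poly replicate 1 (-0.89) or Ortho replicate 2 (-0.95), with median centring (-0.94), with a pseudocount of 5 (-0.52) and, by its adjusted p, without the filter on FPKM.

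Of the H4 genes, Hist1h4i (H4c9, chr13:22040636-22041362, minus strand) held most of the transcripts. It was at 53.9, 58.1 and 39.7 FPKM in Pro, 33.6, 43 and 39 in Baso, 42.9, 35.9 and 38.3 in Poly, and 17.3, 17.1 and 17.8 in Ortho. Ortho lay below the other stages, which overlapped one another. It fell by 1.47 ± 0.13 against Pro (limma adjusted p = 1.46e-06) and by 1.12 ± 0.13 against Poly (adjusted p = 5.8e-05), and both values came under the threshold, at -0.99 and -0.98, with hemoglobin left out, as did the latter with median centring or a pseudocount of 5 (-0.97 in each). It shares 2.1% of its 150-base stretches with other genes and, unlike Hist1h2ap, its model runs 330 bases past the stem-loop to a polyadenylation signal.

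The other H4 genes were low. Hist1h4k was at 9.06, 4.92 and 3.95 FPKM in Pro, 7.23, 6.47 and 6.71 in Baso, 7.38, 7.84 and 7.43 in Poly, and 3.35, 3.22 and 4.29 in Ortho, where it overlapped Pro (-0.53 ± 0.21, limma adjusted p = 0.0338). Hist1h4b was at 2.44, 2.64 and 2.11 FPKM in Pro and 0.353, 0.582 and 0.812 in Ortho and fell by 1.11 ± 0.20 (adjusted p = 0.000312), a call lost with hemoglobin left out (-0.84), with median centring (-0.71) and with a pseudocount of 5 (-0.41). Hist1h4f was at 3.83, 2.86 and 2.04 FPKM in Poly and 0.287, 0.312 and 0.102 in Ortho and fell by 1.64 ± 0.36 (adjusted p = 0.00487), a value that was -3.20 with a pseudocount of 0.1 and -0.59, no longer a call, with a pseudocount of 5. Hist4h4 and Hist1h4i encode the same protein and so differed in course but not in product.

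H3 genes were low, and 0 of the 10 tested were called in any comparison by limma, with 3 lower in Ortho against Pro and 6 lower in Ortho against Poly at an unadjusted p under 0.05. Over all genes, 10062 and 4508 of 12994 were under it in either direction. Hist1h3c, the highest, was at 2.73, 4.13 and 4.94 FPKM in Pro, 5.59, 4.53 and 3.97 in Baso, 4.32, 3.45 and 4.51 in Poly, and 2.58, 2.43 and 2.93 in Ortho, which overlapped Pro (-0.41 ± 0.17, limma adjusted p = 0.0447). Hist1h3g was at 2.41, 2.24 and 1.91 FPKM in Pro, 2.46, 3.68 and 2.88 in Baso, 4.31, 3.35 and 2.1 in Poly, and 1.19, 2.46 and 1.3 in Ortho, with a log2 change of -0.68 ± 0.22 against Poly (adjusted p = 0.0389). In Ortho against Pro the 10 changes lay between -0.80 and -0.18. At the lower end, Hist1h3e was at 2.67, 1.98 and 2.02 FPKM in Pro, 1.94, 1.85 and 2.19 in Baso, 0.995, 1.28 and 1.23 in Poly, and 1.07, 0.646 and 0.854 in Ortho. Poly and Ortho lay below all Pro and Baso libraries, and the Ortho change was -0.80 ± 0.13 (adjusted p = 0.000148). At the upper end, Hist1h3a was at 1.78, 1.69 and 1.78 FPKM in Pro, 3.5, 1.83 and 2.49 in Baso, 2.57, 1.68 and 2.3 in Poly, and 1.5, 1.73 and 1.1 in Ortho, and its Ortho value of -0.18 became 0.12 with hemoglobin left out and 0.22 with median centring.

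Among the H1 genes, Hist1h1a took the opposite course to Hist1h1c. It was at 4.28, 3.3 and 2.38 FPKM in Pro, 2.56, 2.05 and 1.92 in Baso, 1.65, 1.61 and 1.98 in Poly, and 1.23, 1.26 and 1.28 in Ortho. Poly and Ortho lay below Pro, and the Ortho change of -0.91 ± 0.15 (limma adjusted p = 0.000196) was short of a call, which it passed without Pro replicate 3 (-1.08). Hist1h1b, Hist1h1e and Hist1h1d had means of at most 2.23, 2.13 and 0.571 FPKM in any stage, and Hist1h1t, a gene of the male germ line, was above 0 in 4 libraries.

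Genes that make and regulate histone mRNA were compared with these courses. Of 18 listed genes, 17 were tested, and 10 were called lower in Ortho against Pro (23.8% of all genes were), with a median log2 change of -1.10 against -0.42. Slbp, the stem-loop binding protein, was at 245, 204 and 169 FPKM in Pro, 146, 156 and 157 in Baso, 135, 122 and 129 in Poly, and 50.1, 45.2 and 50.4 in Ortho. All Ortho libraries lay below the other stages, and it fell by 2.05 ± 0.11 against Pro (limma adjusted p = 3.34e-08). Npat, the activator of histone gene transcription at S phase entry, was at 9.93, 11.3 and 10.9 FPKM in Pro and 3.83, 3.52 and 4.04 in Ortho and fell by 1.29 ± 0.09 (adjusted p = 1.68e-07). The cap-binding subunit Ncbp1 fell by 1.43 ± 0.08 and the cleavage factor Cpsf2 by 1.34 ± 0.09. With hemoglobin left out, the changes of Npat, Ncbp1 and Cpsf2 were -0.86, -0.95 and -0.87, under the threshold, and that of Slbp was -1.56. Npat and Cpsf2 were under it with median centring too (-0.89 and -0.94), and Npat with a pseudocount of 5 (-0.84). The other 6 called lower were Cstf2, Srrt, Ncbp2, Sympk, Eri1 and Upf1. In Poly against Pro, Ncbp2, the other cap-binding subunit, was the 1 gene called (-1.18 ± 0.10, adjusted p = 1.58e-06), a call lost with hemoglobin left out (-0.85), median centring (-0.93) or a pseudocount of 5 (-0.96).

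Of 36 S phase genes tested, 1 was called lower in Baso against Pro (2.78%, below the 8.54% of all genes), 18 in Poly (50%, against 12.8%) and 35 in Ortho (97.2%, against 23.8%), with median log2 changes of -0.57 in Baso and -1.81 in Ortho. Ccne1, the G1/S cyclin, was at 138, 130 and 126 FPKM in Pro, 56.4, 52.4 and 61.1 in Poly, and 14.5, 15.5 and 16.3 in Ortho and fell by 3.01 ± 0.10 in Ortho (limma adjusted p = 1.8e-09). Cdc6, which loads the replicative helicase, fell by 2.62 ± 0.30. Of 23 histone chaperones, 3 were called lower in Baso (13.0%, against 8.54%), 5 in Poly (21.7%, against 12.8%) and 19 in Ortho (82.6%, against 23.8%), among them Chaf1b (-2.28 ± 0.09), a subunit of the factor that places new histones on replicated DNA, and Nasp (-2.11 ± 0.11), which stores H3 and H4. Of the 57 histone genes, 0 were called lower in Baso or Poly (2 and 3 at an unadjusted p under 0.05 by limma), and the difference between these lists was not tested. The counts of S phase genes and chaperones are given for the deposited scaling alone. Over all genes, 3092 lower in Ortho against Pro became 1152, 1293 and 4863 (hemoglobin left out, median centring, same sum).

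Many, but not all, histone variants outside the clusters are made from polyadenylated mRNA in cycling and resting cells. Of 9 tested, 2 were called lower in Ortho against Pro, a share (22.2%) near that of all genes (23.8%). Cenpa, the centromeric H3, fell by 1.54 ± 0.09 (limma adjusted p = 3.61e-08) and H2afz by 1.19 ± 0.08 (adjusted p = 1e-07), the latter coming to -0.70 with hemoglobin left out and -0.79 with median centring. H2afx, the variant phosphorylated at DNA breaks, which was picked after its values were seen, was the 1 called higher in Poly. It was at 243, 244 and 202 FPKM in Pro, 386, 428 and 422 in Baso, 534, 534 and 540 in Poly, and 168, 178 and 190 in Ortho. It rose by 1.22 ± 0.09 from Pro to Poly (adjusted p = 6.22e-07) and fell by 1.58 ± 0.09 from Poly to Ortho (adjusted p = 1.13e-07). Its mRNA is known to end in either a stem-loop or a poly(A) tail.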

How the data were processed

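The files hold 1 table of FPKM, in which the authors deposited a value per gene and library. Per the labels and the study's methods, reads (PE150) were trimmed with cutadapt and Trimmomatic, aligned to mm10 with HISAT2 and counted with featureCounts. The versions, the annotation release, the tool for FPKM, the treatment of fragments that match several genes and any poly(A) selection are not given in the sources used here. The labels name Trizol and an NEBNext kit, the methods another lysis reagent and KAPA kits. The depth is unknown, so no counting error is given. After 1 repeated identifier was removed, 29838 genes remained, of which 29750 were found in GENCODE M21.

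All 12 libraries entered 1 two-sided model of log2(FPKM + 1) with a variance trend (limma 3.58.1, R 4.3.3). The model was tested on simulated data. Values after ± are SD for levels and SE for log2 changes. Alternatives were pseudocounts of 0.1 and 5, other filters, 3 scalings, no variance trend, a block for the replicate number, a fit of just the 2 stages at issue, calls by the adjusted p alone and leaving out each library. Full values are given for the 2 most abundant genes of each class, those with the highest and lowest change in Ortho against Pro, and those called higher. The 4 genes Hist1h2ak, Hist1h4b, Hist1h4f and Hist1h2bn, the remaining H2a genes and H2afx were added after their values were seen.

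Same-numbered libraries deviated together between Baso and Poly (correlations of deviations from stage means over genes of 0.182 to 0.238), Baso and Ortho (0.156 to 0.264) and Poly and Ortho (0.156 to 0.319), but not with Pro (0.00524 to 0.0968), so the pairing of these 3 stages comes from the values, not from the labels. The members, lists and tests were chosen with earlier results of these data known. Python 3.11.15 read the annotation and drew the figures.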

Additional observations from a re-analysis of the deposited data

How the results depend on the processing

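The counts of genes called moved with the fold threshold, the pseudocount and the scaling. Called higher in Baso against Pro were 5 genes, and 2 with a pseudocount of 5, 9 with hemoglobin left out, 9 with median centring and 10 by the adjusted p alone, which also called 2 lower. Over all 12994 genes tested (13038 with hemoglobin left out), 237 higher became 145, 488, 554 and 1940 in the same order. The adjusted p alone called 5465 of all genes lower. In Poly against Pro, 6 higher became 14 and 0 lower became 3 by the adjusted p alone, and over all genes 467 higher became 3032 and 1663 lower became 5554. In Ortho against Pro, 3 higher became 1 with a pseudocount of 5, 1 with libraries rescaled to the same sum and 5 by the adjusted p alone, and 12 lower became 20 and 6 with pseudocounts of 0.1 and 5, 0 with hemoglobin left out, 2 with median centring and 29 by the adjusted p alone. Over all genes, 823 higher became 350, 319 (of 13045 tested) and 2949 under the same settings. Likewise, 3092 lower became 3879, 1738, 1152, 1293 and 6908. In Poly against Baso, the adjusted p alone called 1 higher and 1 lower, and 1 library decided a call: without Baso replicate 1, 1 gene (Hist1h4f, 1.02) was higher, so that the count ranged from 0 to 1. Over all genes, the adjusted p alone called 855 higher and 750 lower. In Ortho against Poly, 15 lower became 26 and 8 with pseudocounts of 0.1 and 5 and 33 by the adjusted p alone, and over all genes 625 lower became 879, 358 and 2822. Under all 3 scalings, 4 of 5, 6 of 6 and 1 of 3 calls of higher genes against Pro were kept for Baso, Poly and Ortho, and 12 of 15 of lower genes in Ortho against Poly.

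Directions reversed for values near 0: Hist3h2ba in Ortho against Pro (-0.01 with libraries rescaled to the same sum), Hist4h4 in Ortho against Poly (0.01 with hemoglobin left out, 0.06 with median centring), Hist1h3a in Ortho against Pro (0.12 and 0.22) and Hist1h2ap in Poly against Pro (0.26 and 0.16, and -0.34 to 0.31 when 1 library was left out). The cause of these changes was not tested. Of 582 values of single genes under alternatives with all libraries, 526 kept their direction and side of the threshold, as did 681 of 696 with 1 library left out. With the replicate block, the counts were unchanged (5, 6 and 3 higher against Pro, 12 lower in Ortho against Pro, 15 lower in Ortho against Poly), also in the paired model of Baso, Poly and Ortho (15). Leaving out 1 library gave 10 to 14 lower and 2 to 4 higher genes in Ortho against Pro and 13 to 16 lower in Ortho against Poly. Over all genes these counts were 2970 to 3205, 715 to 970 and 610 to 650. The unknown depth limits what can be said of the 42 genes under 5 FPKM.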

Other observations

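Of the 6 genes left out by name or by too few values, Hist3h2bb-ps, named as a pseudogene of H2b, was above 0 in 11 libraries, at 0.013, 0.452 and 0.124 FPKM in Pro, 1.374, 1.073 and 1.409 in Baso, 0.239, 0.706 and 1.18 in Poly, and 0, 0.563 and 0.114 in Ortho. Hist2h2aa1 was at 9.69 FPKM in Poly replicate 1 and 0.101 in Poly replicate 2 and at 0 in the other 10 libraries. Poly replicate 1 also had the lowest H2a sum of its stage (695 FPKM against 1393 and 1612), and the part of shared fragments in this was not tested.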
